A study of Mus musculus with 10 samples.

Results

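Transcripts of the DNA replication machinery were measured in macrophages sorted from mouse mammary tumours after treatment with a glutamine antagonist. The machinery was taken as 44 genes chosen by symbol: the MCM, GINS, ORC and RFC complexes, the replicative polymerases and primase, the RPA and lagging strand proteins, and their loading factors. Of these, 42 had a row among the 46957 loci of the tables and all 42 passed the filter on low counts. Expression of Gins2 and Cdt1 is not analysed here. The tumours arose from 4T1, a mouse breast carcinoma line, injected into the mammary fat pad of mice of the BALB/cJ strain. The 5 vehicle samples came from mice given PBS. The 5 JHU083 samples came from mice given 1 mg/kg of JHU083 from day 7 to day 13. JHU083 is converted in the body to the glutamine antagonist 6-diazo-5-oxo-L-norleucine. Tumours of both groups were taken on day 14, and live cells positive for CD45, CD11b and F4/80 and negative for CD8, Ly6C and Ly6G were sorted. The ages of the mice are not given in the labels. The labels do not say whether each sample came from a separate mouse, so p-values measure the spread between these samples, which may be technical.

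DNA replication begins at origins, where the origin recognition complex (ORC) and Cdc6 load the MCM helicase as an inactive ring before S phase. Cdc45 and the GINS complex then join MCM to form the active helicase, DNA polymerase alpha with primase lays down primers, and the clamp loader RFC places the sliding clamp PCNA for polymerases delta and epsilon. Many of these genes are transcribed at the G1 to S transition under E2F factors. Mature macrophages divide rarely in many tissues, but macrophages in tumours can proliferate locally.

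The tables held between 11147870 and 15740701 fragments per sample, and a floor of 3 fragments corresponded to 0.191 to 0.269 counts per 1000000 fragments (CPM). These floors cover counting error only. All 9 macrophage markers of the list were detected, and their summed level was 11658 to 13925 CPM in vehicle and 14830 to 17417 CPM in JHU083. Vehicle replicates 2, 4 and 5 and JHU083 replicates 1 and 3 had a listed value of 0 at the 18S ribosomal RNA loci Rn18s-rs5 and Gm42418, which held 2.87% to 5.59% of the fragments in the other samples. Results are therefore also given within each of these sets of samples.

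Most transcripts of the replication machinery were lower in the sorted samples from JHU083-treated mice. Markers of other cell types, given at the end, moved with the groups as well. Of the 42 genes, 35 fell with an adjusted p under 0.05 in edgeR's quasi-likelihood test, against 18.3% of the 12501 loci tested. The single gene that rose was Orc5, against 18.4% of loci that rose. The other 6, Orc2, Orc3, Orc4, Gins3, Rfc1 and Pcna, did not pass the test. In 29 of the 42 genes every JHU083 sample was below every vehicle sample, which held for 11.1% of loci. A decrease of at least 1 on the log2 scale was called in 9 genes, against 4.84% of loci. These were Mcm2, Mcm5, Mcm6, Mcm7, Mcm10, Cdc6, Pold1, Pole and Lig1. The median log2 fold change of the 42 genes was -0.69, with a range of -1.37 to 0.27, whereas the median over all loci was 0.01. In bulk RNA, fewer cells expressing a gene and less RNA per cell cannot be told apart.

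**Figure D1:**
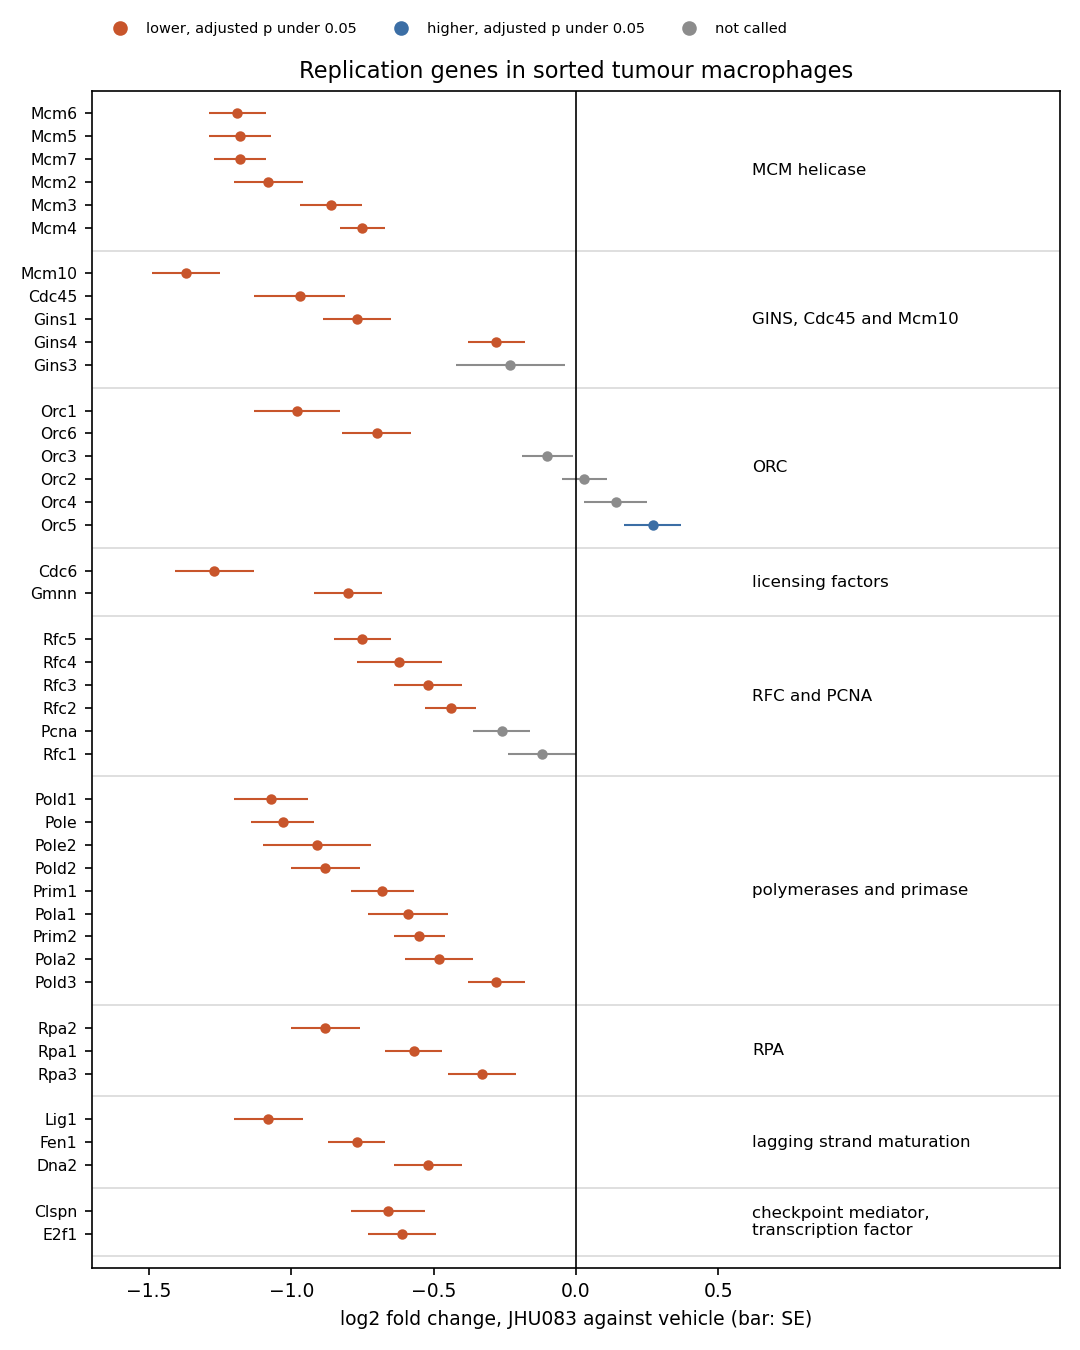
Log2 fold change (JHU083 against vehicle, 5 samples each) of the 42 replication genes by functional group, with bars showing the standard error of the edgeR fit. Points for 35 genes that fell lie left of 0, the ORC subunits straddle 0, and Orc5 is the 1 gene that rose.

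Among the 35 genes that fell, vehicle replicate 1 was the highest vehicle sample in 25 and vehicle replicate 3 the lowest in 27. JHU083 replicate 3 was the highest JHU083 sample in 20. The groups overlapped in 6 of the 35, namely Gins4, Rfc2, Rfc3, Pola1, Pola2 and Rpa3. Summed over the 42 genes, the level was 2071, 1803, 1631, 1741 and 1969 CPM in vehicle replicates 1 to 5 and 1191, 1087, 1283, 1106 and 1097 CPM in JHU083 replicates 1 to 5. The treated samples thus all lay below the untreated ones, with a mean of 62.6% of the vehicle mean. Within the samples listed at 0 for the ribosomal loci (3 vehicle, 2 JHU083), 19 of the 42 genes fell, against 4.61% of 12718 loci, and 0 rose, against 4.18%. The 17 genes that lost their call there were Orc5, Orc6, Gins4, Rfc2, Rfc3, Rfc4, Pola1, Pola2, Prim1, Prim2, Pold3, Pole2, Rpa1, Rpa3, Dna2, Clspn and E2f1. Within the remaining samples (2 vehicle, 3 JHU083), 30 fell, against 11.9% of 12967 loci, and 0 rose, against 9.82%. The 6 that lost their call were Orc5, Gins4, Pola2, Pold3, Rpa3 and Dna2. The median log2 fold change of the MCM subunits was -0.95 and -1.26 in these sets. The sign was negative for 39 of the 42 genes in each of these sets, as it was over all samples.

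**Figure D2:**
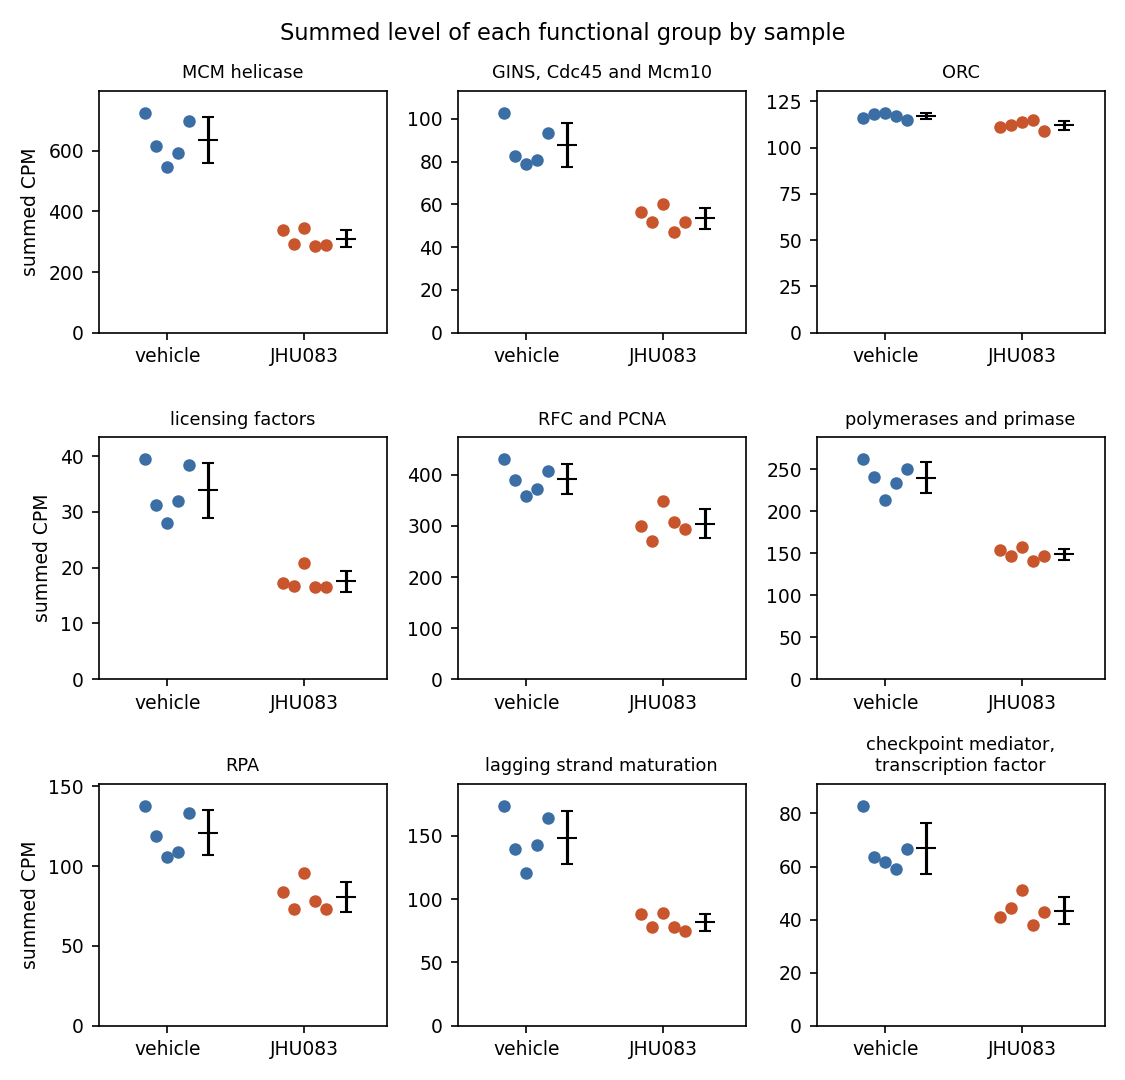
Summed CPM of the genes of each functional group in each sample (points, replicates 1 to 5 from left to right within a group), with the mean and SD beside them. The MCM sum lay at 545 to 726 CPM in vehicle and 285 to 346 CPM in JHU083, while the ORC sums of the groups met at 115 CPM.

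E2F factors bind a short GC-rich element that lies close to the start of many replication genes, so the promoters were searched for it. RefSeq promoter windows (GRCm38.p6; 250 bases before to 50 after the start) were matched by symbol for 36 of the 44 genes. The strict E2F element was taken as TTTCCCGC, TTTGCCGC, TTTCGCGC or TTTGGCGC on either strand, and overlapping matches were allowed. It was present in 16 of the 36 genes (44.4%), against 704 of 27025 genes with a window (2.6%) and 2.26% of all windows. One of the 16 was Cdt1, whose expression is not analysed here. Among the genes that fell it was present in 13 of 28, and among the tested genes that did not fall in 2 of 7. The median log2 fold change was -0.91 over the 15 tested genes with a match and -0.61 over the 20 without. For a looser core, the same element without its leading T, the shares were 18 of 28 and 4 of 7, and the medians were -0.73 with and -0.61 without a match. A match describes these letters only, and Mcm10 and Mcm2, which fell, had none in their windows. The stretches around the element are shown for the 8 genes with a match that fell most and for Gins3 and Orc3, which have the element and did not pass the test. Capitals mark the element, each stretch reads 5′ to 3′ along the gene's strand, and the longer capitals in Mcm6 and Mcm5 are overlapping matches on opposite strands.
Cdc6, chr11:98907993-98908092, plus strand: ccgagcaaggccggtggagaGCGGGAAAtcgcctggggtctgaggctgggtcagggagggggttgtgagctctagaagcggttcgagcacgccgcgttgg
Mcm6, chr1:128359736-128359835, minus strand: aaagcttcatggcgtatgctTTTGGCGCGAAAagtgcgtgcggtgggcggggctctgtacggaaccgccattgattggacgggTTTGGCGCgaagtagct
Mcm5, chr8:75109336-75109435, plus strand: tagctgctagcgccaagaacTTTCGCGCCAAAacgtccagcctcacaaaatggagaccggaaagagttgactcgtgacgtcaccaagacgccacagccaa
Mcm7, chr5:138171969-138172068, minus strand: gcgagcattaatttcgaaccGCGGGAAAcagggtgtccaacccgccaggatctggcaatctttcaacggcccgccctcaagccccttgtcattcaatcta
Lig1, chr7:13278841-13278870, plus strand: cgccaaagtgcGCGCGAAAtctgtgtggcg
Pold1, chr7:44548766-44548795, minus strand: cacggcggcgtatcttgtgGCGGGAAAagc
Orc1, chr4:108579354-108579453, plus strand: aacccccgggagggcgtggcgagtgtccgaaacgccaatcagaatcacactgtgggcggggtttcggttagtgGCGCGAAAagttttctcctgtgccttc
Pole2, chr12:69228162-69228191, minus strand: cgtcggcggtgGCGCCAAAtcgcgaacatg
Gins3, chr8:95633459-95633558, plus strand: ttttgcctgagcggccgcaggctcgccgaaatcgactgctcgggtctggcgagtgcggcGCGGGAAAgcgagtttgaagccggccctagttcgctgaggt
Orc3, chr4:34614943-34615042, minus strand: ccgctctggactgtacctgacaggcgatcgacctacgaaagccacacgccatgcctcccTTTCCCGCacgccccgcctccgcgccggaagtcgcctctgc
In Cdc6, Mcm6, Mcm5, Mcm7, Orc1, Gins3 and Orc3 the stretch lies before the start that RefSeq annotates. In Lig1, Pold1 and Pole2 the element lies after the start, and the stretch is limited to 30 bases, of which the first in Pole2 lies before the start.

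Origins are first marked by ORC, of whose 6 subunits 2 fell, 1 rose and 3 did not pass the test. Over all loci 18.3% fell and 18.4% rose, so the 1 that rose is a share near that of all loci. Orc1, the subunit whose level varies through the cell cycle, was 7.2, 7.31, 6.49, 7.65 and 7.75 CPM in vehicle replicates 1 to 5 and 2.66, 4.25, 4.25, 3.44 and 3.8 CPM in JHU083 replicates 1 to 5. All treated samples were below all untreated ones, a decrease of 1.98-fold (log2 fold change -0.98 ± 0.15 (SE), adjusted p = 0.00026). Orc6, a loosely bound subunit, was 15.6, 16.2, 13.4, 14.7 and 16.7 CPM in vehicle replicates 1 to 5 and 8.25, 9.19, 11.8, 8.49 and 9.36 CPM in JHU083 replicates 1 to 5. Its groups did not overlap either, although JHU083 replicate 3 was nearest to the vehicle samples (log2 fold change -0.70 ± 0.12 (SE), adjusted p = 0.000453).

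The core subunits Orc2, Orc3 and Orc4 did not pass the test. Orc2 was 25.7, 27.4, 26.9, 23.2 and 25.4 CPM in vehicle replicates 1 to 5 and 25.8, 24.3, 27.7, 27.8 and 25.5 CPM in JHU083 replicates 1 to 5, and the groups overlapped (log2 fold change 0.03 ± 0.08 (SE), adjusted p = 0.808). With library size alone as the scaling, its log2 fold change was -0.05. Orc3 averaged 27.9 ± 1.08 CPM in the vehicle samples and 26.1 ± 2.59 CPM in the JHU083 samples (SD, n = 5 each), with JHU083 replicate 5 the lowest of all samples (log2 fold change -0.10 ± 0.09 (SE), adjusted p = 0.397). Orc4 averaged 23.6 ± 2.79 CPM in the vehicle samples and 25.9 ± 3.54 CPM in the JHU083 samples (SD, n = 5 each), and its groups overlapped (log2 fold change 0.14 ± 0.11 (SE), adjusted p = 0.364). Orc5, whose locus also lists Gm15421, was 18.1, 16.8, 17.1, 17.6 and 17.3 CPM in vehicle replicates 1 to 5 and 18.7, 20.2, 23.6, 24.2 and 18.8 CPM in JHU083 replicates 1 to 5. Every treated sample was above every untreated one by a small margin, with JHU083 replicates 3 and 4 the highest (log2 fold change 0.27 ± 0.10 (SE), adjusted p = 0.0394). This call passed in 9 of 26 alternatives, over which the adjusted p ranged from 0.0284 to 0.285. It was lost on leaving out any vehicle replicate, or JHU083 replicate 3 or 4. The adjusted p was 0.0612 with upper quartile scaling and 0.115 with library size only. As a sum, the ORC subunits gave 117 ± 1.58 against 112 ± 2.35 summed CPM (SD, n = 5 each). The median log2 fold change of the 6 subunits was -0.03.

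Cdc6, the ATPase that joins ORC to load MCM and whose promoter stretch is printed above, was 13.2, 10.2, 10.2, 11 and 15.2 CPM in vehicle replicates 1 to 5 and 4.84, 4.87, 4.92, 5.12 and 5.04 CPM in JHU083 replicates 1 to 5. The treated samples were close to each other and all were below the lowest vehicle sample, a 2.41-fold decrease (log2 fold change -1.27 ± 0.14 (SE), adjusted p = 1.5e-05). Geminin (Gmnn), which binds and inhibits the licensing factor Cdt1 after origins have fired, was 26.3, 21.1, 17.9, 20.9 and 23.3 CPM in vehicle replicates 1 to 5 and 12.3, 11.9, 15.9, 11.4 and 11.5 CPM in JHU083 replicates 1 to 5. JHU083 replicate 3 stood above the other treated samples but below every vehicle sample (log2 fold change -0.80 ± 0.12 (SE), adjusted p = 0.00027).

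All 6 subunits of the MCM helicase, the ring that unwinds the parental duplex, fell. Mcm2 (chr6:88883474-88898780, GRCm38 per GENCODE M21) was 111, 91.5, 80.7, 82.7 and 110 CPM in vehicle replicates 1 to 5 and 48.9, 40, 53.8, 37.3 and 44.5 CPM in JHU083 replicates 1 to 5. Mcm5 (chr8:75109569-75128439) was 143, 112, 98.6, 114 and 138 CPM in vehicle replicates 1 to 5 and 61.8, 49.1, 57.9, 49.8 and 47.7 CPM in JHU083 replicates 1 to 5. Mcm6 (chr1:128331590-128359664) was 111, 102, 82.7, 86.1 and 104 CPM in vehicle replicates 1 to 5 and 45.1, 42.8, 48.9, 37.1 and 39.4 CPM in JHU083 replicates 1 to 5. In each of these, vehicle replicates 1 and 5 were the highest, vehicle replicate 3 was the lowest untreated sample, and the groups did not overlap. The decreases were 2.12-fold for Mcm2 (log2 fold change -1.08 ± 0.12 (SE), adjusted p = 1.82e-05), 2.27-fold for Mcm5 (log2 fold change -1.18 ± 0.11 (SE), adjusted p = 6.41e-06) and 2.28-fold for Mcm6 (log2 fold change -1.19 ± 0.10 (SE), adjusted p = 3.16e-06).

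Mcm7 (chr5:138164583-138172422), whose locus also lists the microRNAs Mir25 and Mir93, was 127, 106, 95.2, 108 and 122 CPM in vehicle replicates 1 to 5 and 53.2, 48.2, 53.8, 46.6 and 44.1 CPM in JHU083 replicates 1 to 5. The treated samples were all well under the lowest untreated one (log2 fold change -1.18 ± 0.09 (SE), adjusted p = 1.71e-06). Mcm3 (chr1:20802968-20820312) was 132, 110, 101, 104 and 128 CPM in vehicle replicates 1 to 5 and 64.2, 60.5, 77.5, 54.2 and 60.1 CPM in JHU083 replicates 1 to 5. JHU083 replicate 3 was the highest treated sample and still lay below vehicle replicate 3 (log2 fold change -0.86 ± 0.11 (SE), adjusted p = 4.06e-05). Mcm4 (chr16:15623897-15637400) was 103, 94.9, 86.7, 98.3 and 96.5 CPM in vehicle replicates 1 to 5 and 65.1, 53.9, 53.7, 59.8 and 52.6 CPM in JHU083 replicates 1 to 5. It had the smallest decrease of the 6, with no overlap of the groups (log2 fold change -0.75 ± 0.08 (SE), adjusted p = 1.5e-05). Whether the subunits differed from each other in their decrease was not tested. All 6 passed the test in every alternative that included them, the ones restricted to either set of samples at the ribosomal loci included.

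Levels of different genes were compared per length, on the deposited FPKM scale. Mcm7, Mcm3 and Mcm5 averaged 47.1, 46.4 and 46 FPKM in vehicle, and Mcm2 and Mcm4 averaged 27.9 and 26 FPKM. The ring holds each subunit once, and within a sample the highest of the 6 transcripts was 1.61 to 2.14 times the lowest. Mcm4 or Mcm2 was the lowest and Mcm7 or Mcm3 the highest in each of the 10 samples.

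**Figure D3:**
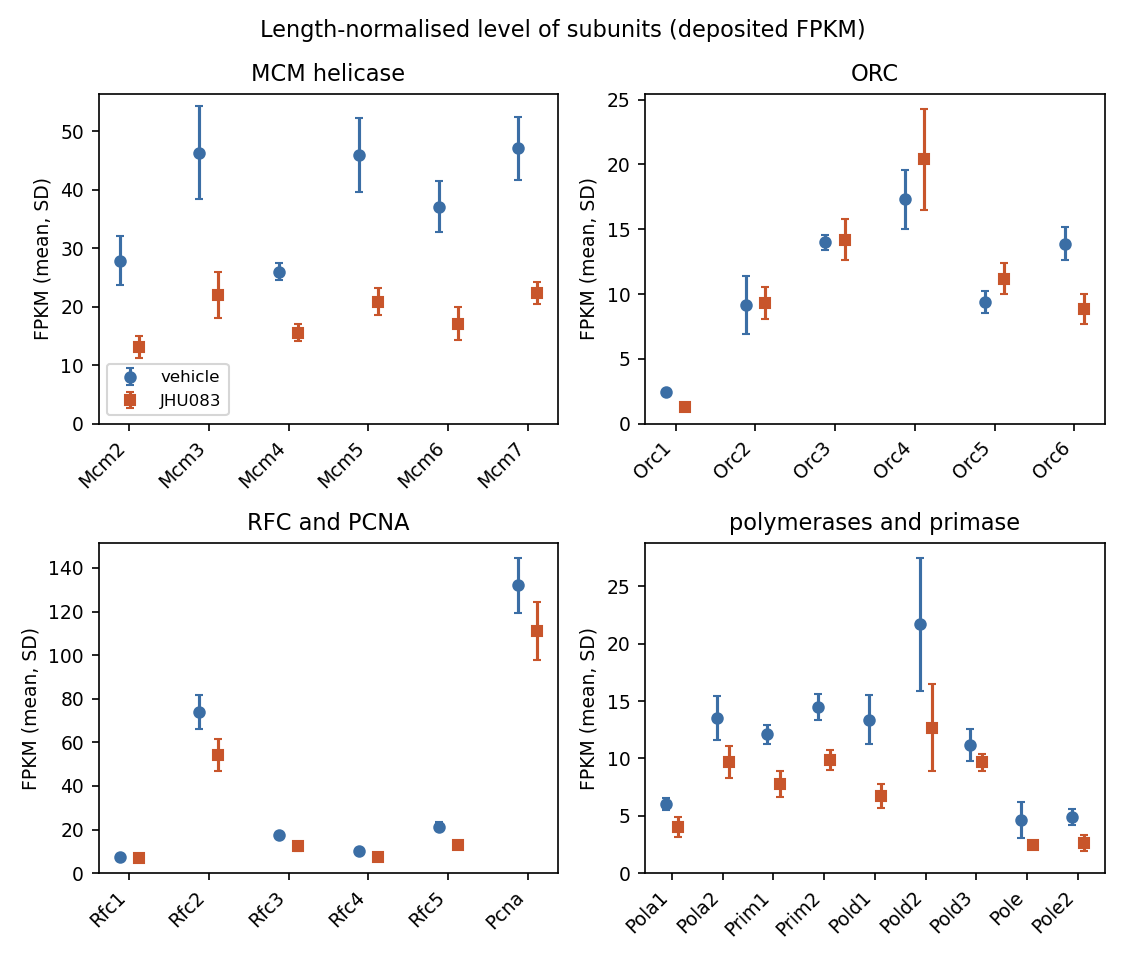
Deposited FPKM (mean and SD, 5 samples per group) of the subunits of the MCM helicase, ORC, RFC with PCNA, and the polymerases with primase. The MCM subunits were lower in JHU083 throughout, from 47.1 to 22.4 FPKM for Mcm7, whereas Orc2 was at 9.14 and 9.32 FPKM.

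Of the factors that turn the loaded ring into an active helicase, 4 of 5 fell. Mcm10, which helps to start unwinding, had the largest decrease of the 42 genes. It was 24, 18.1, 18, 17.6 and 21.5 CPM in vehicle replicates 1 to 5 and 8.05, 8.5, 8.13, 7.57 and 6.22 CPM in JHU083 replicates 1 to 5. The groups were far apart, with the highest treated sample at 8.5 CPM and the lowest untreated one at 17.6 CPM (log2 fold change -1.37 ± 0.12 (SE), adjusted p = 4.81e-06). Cdc45, which bridges MCM and GINS, was 25, 17.7, 17.6, 19.2 and 22.2 CPM in vehicle replicates 1 to 5 and 13.2, 11.7, 11, 7.26 and 8.91 CPM in JHU083 replicates 1 to 5. Treated replicates 4 and 5 were the lowest, and the groups did not overlap (log2 fold change -0.97 ± 0.16 (SE), adjusted p = 0.000348).

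The GINS subunits were less uniform. Gins1 averaged 16.1 ± 2.09 CPM in the vehicle samples and 9.46 ± 1.22 CPM in the JHU083 samples (SD, n = 5 each) with no overlap (log2 fold change -0.77 ± 0.12 (SE), adjusted p = 0.000323). Gins4 averaged 27.6 ± 2.48 CPM in the vehicle samples and 22.7 ± 2.91 CPM in the JHU083 samples (SD, n = 5 each), and JHU083 replicate 3, at 27.1 CPM, was above vehicle replicates 3 and 4 (log2 fold change -0.28 ± 0.10 (SE), adjusted p = 0.0447). That call passed in 12 of 27 alternatives, with adjusted p from 0.00788 to 0.661, and was lost without vehicle replicate 1, 2 or 5 or without JHU083 replicate 1, 2, 4 or 5. Gins3, the lowest of the 42 genes per length in vehicle at 1.52 FPKM, averaged 3.81 ± 0.327 CPM in the vehicle samples and 3.24 ± 0.713 CPM in the JHU083 samples (SD, n = 5 each) and did not pass the test (log2 fold change -0.23 ± 0.19 (SE), adjusted p = 0.347).

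DNA synthesis is started and carried on by polymerases alpha, delta and epsilon, and the 9 subunits among the 42 genes all fell. Of the small accessory subunits counted with the fork cofactors, Pole3 fell (log2 fold change -0.31 ± 0.09 (SE), adjusted p = 0.0151), and Pold4 (log2 fold change -0.08 ± 0.09 (SE), adjusted p = 0.505) and Pole4 (log2 fold change -0.17 ± 0.10 (SE), adjusted p = 0.183) did not pass the test. The Pole3 call was lost within the samples listed at 0 (adjusted p from 0.0024 to 0.446 over the alternatives). Pole4 passed with library size only and without JHU083 replicate 3 (adjusted p from 0.0395 to 0.823). These 3 are named here because they complete the complexes, chosen after their values were seen. Pold1, the catalytic subunit of polymerase delta, was 52.8, 45.6, 34.5, 40.1 and 51.7 CPM in vehicle replicates 1 to 5 and 25.6, 19.6, 24.2, 18.1 and 19.4 CPM in JHU083 replicates 1 to 5. Pole, the catalytic subunit of polymerase epsilon, was 19.9, 19.2, 16.7, 17.8 and 20.9 CPM in vehicle replicates 1 to 5 and 11.4, 8.64, 8.13, 8.72 and 9.36 CPM in JHU083 replicates 1 to 5. In both genes every treated sample was below every untreated one. The decreases were 2.1-fold for Pold1 (log2 fold change -1.07 ± 0.13 (SE), adjusted p = 4.06e-05) and 2.04-fold for Pole (log2 fold change -1.03 ± 0.11 (SE), adjusted p = 1.7e-05). The accessory subunits Pold2 (log2 fold change -0.88 ± 0.12 (SE), adjusted p = 7.74e-05) and Pole2 (log2 fold change -0.91 ± 0.19 (SE), adjusted p = 0.00197) also fell without overlap. Pold3, a delta subunit that binds PCNA, averaged 28.3 ± 2.9 CPM in the vehicle samples and 23.2 ± 2.71 CPM in the JHU083 samples (SD, n = 5 each). Its groups were separated by a narrow gap, with JHU083 replicate 5 at 25.7 CPM and vehicle replicate 3 at 26.3 CPM (log2 fold change -0.28 ± 0.10 (SE), adjusted p = 0.0423). The Pold3 call passed in 14 of 27 alternatives, with adjusted p from 0.00983 to 0.292, and was lost without vehicle replicate 1, 2 or 5 or without JHU083 replicate 1, 2 or 4.

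Polymerase alpha and primase, which make the primers, showed smaller changes than the catalytic subunits of delta and epsilon, although the difference was not tested. Pola1, the polymerase alpha catalytic subunit, was 29.1, 33.7, 31.8, 34.4 and 23.5 CPM in vehicle replicates 1 to 5 and 24.8, 20.8, 14.1, 18.3 and 23 CPM in JHU083 replicates 1 to 5. JHU083 replicate 1 was above vehicle replicate 5, so the groups overlapped (log2 fold change -0.59 ± 0.14 (SE), adjusted p = 0.00599). Pola2 averaged 32.5 ± 4.73 CPM in the vehicle samples and 23.3 ± 3.33 CPM in the JHU083 samples (SD, n = 5 each), and JHU083 replicate 3 was above vehicle replicate 3 (log2 fold change -0.48 ± 0.12 (SE), adjusted p = 0.00664). The primase subunits Prim1 (log2 fold change -0.68 ± 0.11 (SE), adjusted p = 0.000398) and Prim2 (log2 fold change -0.55 ± 0.09 (SE), adjusted p = 0.000442) fell with no overlap. Summed over the 9 genes, the level was 262, 241, 213, 234 and 250 CPM in vehicle replicates 1 to 5 and 154, 146, 157, 141 and 146 CPM in JHU083 replicates 1 to 5.

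The sliding clamp did not pass the test, by a small margin. Pcna, which tethers the polymerases to DNA, was the highest of the 42 genes per length, at 132 FPKM in vehicle and 111 FPKM in JHU083. It was 211, 191, 169, 167 and 189 CPM in vehicle replicates 1 to 5 and 153, 130, 186, 159 and 149 CPM in JHU083 replicates 1 to 5. JHU083 replicate 3 was above vehicle replicates 3 and 4, and the other treated samples were below all untreated ones. The adjusted p lay just above the threshold (log2 fold change -0.26 ± 0.10 (SE), adjusted p = 0.05003). GENCODE M21 also lists the pseudogenes Pcna-ps1 and Pcna-ps2, so fragments that such copies could share leave the Pcna level uncertain. It passed in 12 of 27 alternatives, with adjusted p from 0.00591 to 0.669. Among these were the fits without vehicle replicate 3, without vehicle replicate 4 and without JHU083 replicate 3.

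Of the clamp loader, the large subunit Rfc1 did not pass the test and the 4 small subunits fell. Rfc1 was 31.7, 33.4, 37, 39.6 and 29.7 CPM in vehicle replicates 1 to 5 and 30.8, 36.1, 22.9, 31 and 36.9 CPM in JHU083 replicates 1 to 5. JHU083 replicate 3 was the lowest of all samples and the rest were intermixed (log2 fold change -0.12 ± 0.12 (SE), adjusted p = 0.478). Rfc5 averaged 53.3 ± 6.14 CPM in the vehicle samples and 31.7 ± 3.56 CPM in the JHU083 samples (SD, n = 5 each) with no overlap (log2 fold change -0.75 ± 0.10 (SE), adjusted p = 7.47e-05). Rfc4 averaged 11.2 ± 1.71 CPM in the vehicle samples and 7.3 ± 1.27 CPM in the JHU083 samples (SD, n = 5 each) with no overlap (log2 fold change -0.62 ± 0.15 (SE), adjusted p = 0.00476). Rfc2 (log2 fold change -0.44 ± 0.09 (SE), adjusted p = 0.00239) and Rfc3 (log2 fold change -0.52 ± 0.12 (SE), adjusted p = 0.00423) fell with JHU083 replicate 3 reaching the vehicle range. That replicate, lowest for Rfc1, was the highest treated sample for Rfc2, Rfc3 and Rfc5. The library kit does not mark strand and GENCODE M21 places an antisense gene over part of several members, so fragments there could not be assigned to 1 gene. The overlap covered 15.1% of the exonic bases of Rfc2 (with Lat2), 12.7% of Rfc4 (with Eif4a2), 29.8% of Orc2 (with Nif3l1) and 78.8% of Fen1 (with Gm10143).

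Replication protein A coats the single strands behind the helicase, and its 3 subunits fell. Rpa2 was 26.8, 21.2, 19, 20.9 and 25.1 CPM in vehicle replicates 1 to 5 and 11.3, 12.4, 15.4, 11.6 and 10.9 CPM in JHU083 replicates 1 to 5. Its groups did not overlap (log2 fold change -0.88 ± 0.12 (SE), adjusted p = 0.000126). Rpa1, the large DNA-binding subunit, averaged 83.3 ± 9.74 CPM in the vehicle samples and 56.2 ± 6.84 CPM in the JHU083 samples (SD, n = 5 each), also with no overlap (log2 fold change -0.57 ± 0.10 (SE), adjusted p = 0.000687). Its locus also lists AL603834.1. Rpa3 averaged 15.3 ± 1.78 CPM in the vehicle samples and 12.2 ± 1.52 CPM in the JHU083 samples (SD, n = 5 each), and JHU083 replicate 3 was above vehicle replicates 3 and 4 (log2 fold change -0.33 ± 0.12 (SE), adjusted p = 0.0417). The Rpa3 call passed in 14 of 27 alternatives, with adjusted p from 0.0133 to 0.502, and was lost without vehicle replicate 1, 2 or 5 or without JHU083 replicate 1, 2, 4 or 5.

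The enzymes that join the fragments of the lagging strand fell in each case. Lig1, the ligase that seals the nicks, was 87.5, 62.9, 58.2, 65.2 and 80.5 CPM in vehicle replicates 1 to 5 and 36.1, 30, 38.7, 34.2 and 28.6 CPM in JHU083 replicates 1 to 5. Vehicle replicates 1 and 5 were the highest, as for Mcm2, Mcm5 and Mcm6, and the groups were far apart (log2 fold change -1.08 ± 0.12 (SE), adjusted p = 2.18e-05). The flap endonuclease Fen1 was 61.2, 53.9, 43, 51.2 and 58.3 CPM in vehicle replicates 1 to 5 and 32.7, 27.7, 35.9, 30.7 and 30.4 CPM in JHU083 replicates 1 to 5, with no overlap (log2 fold change -0.77 ± 0.10 (SE), adjusted p = 8.6e-05). Dna2, a nuclease and helicase that trims long flaps, averaged 24.1 ± 2.4 CPM in the vehicle samples and 16.7 ± 3 CPM in the JHU083 samples (SD, n = 5 each). Its groups were separated by a narrow gap, between JHU083 replicate 2 at 20.1 CPM and vehicle replicate 3 at 20.2 CPM (log2 fold change -0.52 ± 0.12 (SE), adjusted p = 0.00479). The Dna2 call was lost with limma on FPKM and within either set of samples at the ribosomal loci, and passed in 22 of 27 alternatives (adjusted p from 0.000509 to 0.149).

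E2f1, a transcription factor that activates many S phase genes, was 70.5, 52.4, 50, 47.4 and 54.5 CPM in vehicle replicates 1 to 5 and 32.7, 34.6, 44.3, 32 and 36.2 CPM in JHU083 replicates 1 to 5. All treated samples were below all untreated ones, with JHU083 replicate 3 closest (log2 fold change -0.61 ± 0.12 (SE), adjusted p = 0.00125). Claspin (Clspn), which relays the replication checkpoint signal at the fork, averaged 11.8 ± 0.503 CPM in the vehicle samples and 7.47 ± 1.43 CPM in the JHU083 samples (SD, n = 5 each) with no overlap (log2 fold change -0.66 ± 0.13 (SE), adjusted p = 0.00146). The Clspn call was lost with limma on FPKM and within the samples listed at 0, and passed in 23 of 27 alternatives (adjusted p from 3.06e-05 to 0.226).

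Other genes of the pathway moved in a similar direction in most cases. Of 70 genes in 6 lists, all tested, 40 fell, against 18.3% of loci, and 4 rose, against 18.4%, with a median log2 fold change of -0.43. These 70 include 12 DNA polymerases outside the replicative set, of which 0 fell. Among 19 further subunits and cofactors of the fork, 13 fell and 0 rose. These included Dscc1, part of an alternative clamp loader (log2 fold change -1.48 ± 0.16 (SE), adjusted p = 1.61e-05), and Pclaf, a PCNA-binding protein (log2 fold change -1.28 ± 0.14 (SE), adjusted p = 1.49e-05). Top2a, the topoisomerase of proliferating cells whose locus also lists Gm23451, fell as well (log2 fold change -1.02 ± 0.14 (SE), adjusted p = 9.74e-05).

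Among 8 origin firing factors, 5 fell and 0 rose. Recql4 (log2 fold change -1.37 ± 0.25 (SE), adjusted p = 0.000799) and Ticrr, also called treslin (log2 fold change -0.85 ± 0.21 (SE), adjusted p = 0.0066), both of which help to assemble the active helicase, were among them. The Recql4 call was lost within the samples listed at 0, with adjusted p up to 0.0829. Ticrr was between -1.15 and -0.16 over 27 alternatives (adjusted p from 0.000511 to 0.471), and its call was lost with limma on FPKM and within the samples above 0 at the ribosomal loci. Cdc7, the kinase that phosphorylates MCM, was 5.3, 4.72, 5.96, 4.95 and 6.73 CPM in vehicle replicates 1 to 5 and 2.73, 4.04, 2.53, 3.06 and 3.01 CPM in JHU083 replicates 1 to 5 and fell without overlap (log2 fold change -0.84 ± 0.17 (SE), adjusted p = 0.00191). The Cdc7 call was lost within either set of samples and with limma on unfiltered FPKM (-1.05 to -0.37, adjusted p from 9.35e-05 to 0.104 over the alternatives). Its activating subunit Dbf4 was 25.3, 26.4, 23.8, 22 and 24 CPM in vehicle replicates 1 to 5 and 24.9, 23.5, 17.1, 25.5 and 24.1 CPM in JHU083 replicates 1 to 5. JHU083 replicate 3 was the lowest, the other treated samples lay within the vehicle range, and Dbf4 did not pass the test (log2 fold change -0.08 ± 0.11 (SE), adjusted p = 0.603). Whether Cdc7 and Dbf4 differed was not tested. Donson, also in this list and not called, has a locus that lists Atp5o too, so the level read there is not that of Donson alone. It is named here only for its shared locus.

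In chromatin assembly behind the fork, 6 of 9 genes fell and 0 rose. The largest decreases were in Uhrf1, which brings the maintenance methyltransferase to new DNA (log2 fold change -1.40 ± 0.11 (SE), adjusted p = 2.28e-06), and the histone chaperone Asf1b (log2 fold change -1.17 ± 0.14 (SE), adjusted p = 3.54e-05). In deoxynucleotide supply, 9 of 10 genes fell and 0 rose, with a median of -0.91. Rrm2, the small subunit of ribonucleotide reductase, was 46.7, 42.7, 37.6, 32.2 and 46.1 CPM in vehicle replicates 1 to 5 and 21.1, 21.6, 22.6, 16.6 and 20.6 CPM in JHU083 replicates 1 to 5. Its groups did not overlap, and it fell by 2-fold (SE of the log2 fold change 0.12, adjusted p = 2.33e-05). Dut, which removes dUTP, fell by a similar amount (log2 fold change -0.99 ± 0.12 (SE), adjusted p = 3.37e-05).

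The E2F and pocket protein family was mixed, with 7 of 12 genes lower and 2 higher, the latter a share near that of all loci (18.4%). E2f7 (log2 fold change -1.10 ± 0.20 (SE), adjusted p = 0.000777) and E2f2 (log2 fold change -0.88 ± 0.15 (SE), adjusted p = 0.000526) fell. The E2f7 call was lost with limma on FPKM and within the samples listed at 0 (-1.28 to -0.38, adjusted p from 6.55e-06 to 0.305). Rbl2, the pocket protein p130 that is abundant in resting cells, was 24.7, 27.1, 28.9, 24.4 and 23 CPM in vehicle replicates 1 to 5 and 37.4, 41, 28.3, 40.8 and 38.6 CPM in JHU083 replicates 1 to 5. It rose, although JHU083 replicate 3 lay within the vehicle range (log2 fold change 0.54 ± 0.11 (SE), adjusted p = 0.00163). The call was lost within the samples listed at 0 and with limma on unfiltered FPKM (adjusted p from 5.9e-05 to 0.156). Tfdp2, a dimer partner of E2F factors, rose with no overlap (log2 fold change 0.50 ± 0.13 (SE), adjusted p = 0.00903), a call lost with limma on FPKM and within either set of samples (adjusted p from 0.00271 to 0.162). Among 12 DNA polymerases outside the replicative set, 0 fell, against 18.3% of loci, and 2 rose, a share near the 18.4% of all loci that rose. The median log2 fold change was 0.01, as over all loci. The genes that rose were the translesion polymerases Polk (log2 fold change 0.55 ± 0.13 (SE), adjusted p = 0.0044) and Rev1 (log2 fold change 0.34 ± 0.10 (SE), adjusted p = 0.0177). The Polk call was lost within either set of samples at the ribosomal loci (adjusted p from 0.000696 to 0.11 over 27 alternatives). The Rev1 call was lost in those sets, with library size only, and without vehicle replicate 1, vehicle replicate 2 or JHU083 replicate 5 (adjusted p from 0.00916 to 0.487).

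**Figure D4:**
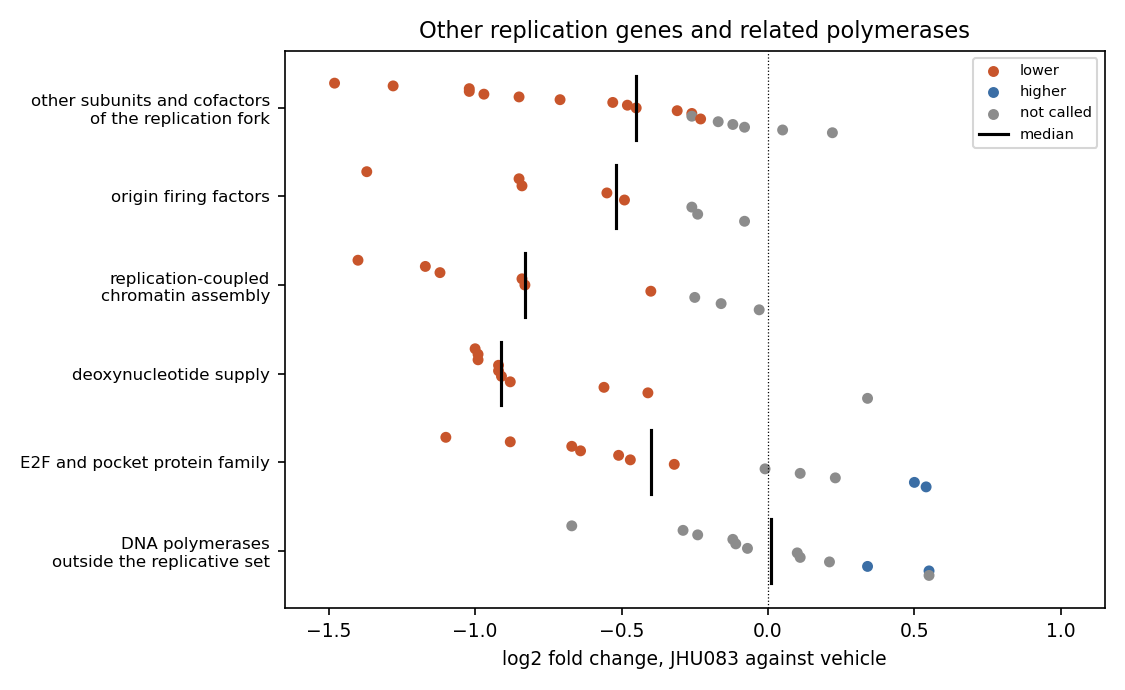
Log2 fold change (JHU083 against vehicle, 5 samples each) of 70 further genes in 6 lists, with the median of each list as a black bar and points coloured by the edgeR call. Medians lay below 0 in 5 lists, down to -0.91 for deoxynucleotide supply, and at 0.01 for the other DNA polymerases.

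Replication genes are transcribed in any dividing cell, so markers of cell types other than macrophages were read in the same samples. Of 11 tumour epithelial markers all were detected, none was at 0 in all samples, and Krt5 had at most 10 fragments. The 10 that were tested all fell, with a median log2 fold change of -1.78. Their summed level was 422, 666, 583, 469 and 306 CPM in vehicle replicates 1 to 5 and 149, 185, 105, 223 and 136 CPM in JHU083 replicates 1 to 5. The summed MCM level was 726, 616, 545, 594 and 699 CPM in vehicle replicates 1 to 5 and 338, 294, 346, 285 and 289 CPM in JHU083 replicates 1 to 5. Both sums were lower in every treated sample than in any untreated one. Within groups the order differed: vehicle replicates 5 and 1, with the least epithelial signal of the untreated samples, had the highest MCM sums, and JHU083 replicate 3, with the least of all, had the highest treated MCM sum. The part of epithelial RNA in the decrease between groups was not tested.

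**Figure D5:**
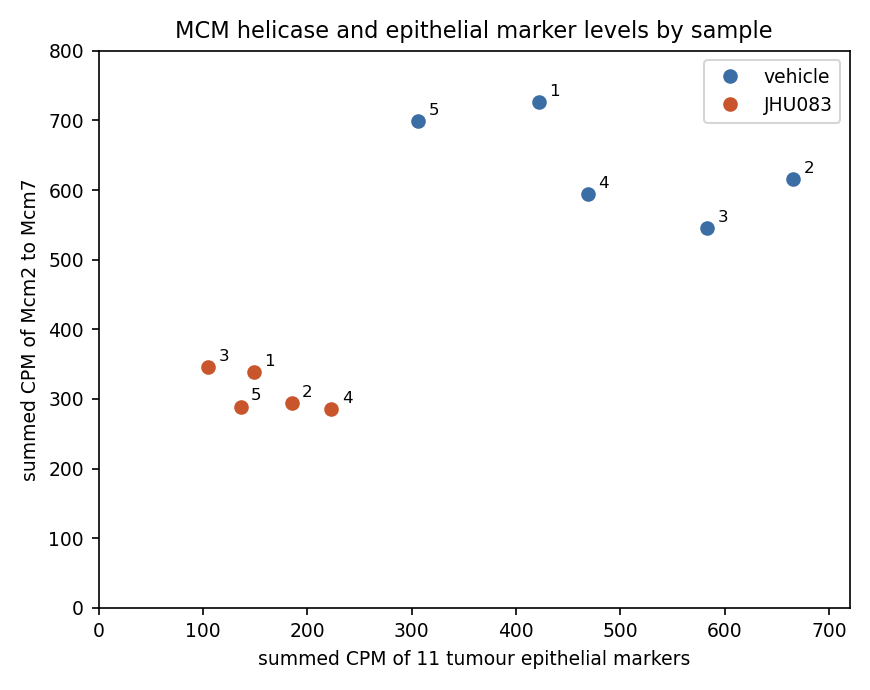
Summed CPM of Mcm2 to Mcm7 (vertical) against the summed CPM of 11 tumour epithelial markers (horizontal) in each sample, numbered by replicate. Vehicle samples lie at 306 to 666 epithelial CPM and 545 to 726 MCM CPM, and JHU083 samples at 105 to 223 and 285 to 346.

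Fibroblast and endothelial markers also moved with the groups. Of 6 tested, 5 fell and Cdh5 did not pass the test (log2 fold change -0.49 ± 0.27 (SE), adjusted p = 0.176). The summed level was 205 to 315 CPM in vehicle and 75.1 to 127 CPM in JHU083. Pecam1 was the highest, at a mean of 151 CPM in vehicle, and the only marker of the 6 whose groups did not overlap. For 8 T and NK cell markers the sum was 27.3 to 29.9 CPM in vehicle and 37.2 to 54.7 CPM in JHU083. Of the 2 that could be tested, Cd4 rose (log2 fold change 1.12 ± 0.13 (SE), adjusted p = 2.07e-05) and Klrb1c did not pass the test (log2 fold change -0.38 ± 0.15 (SE), adjusted p = 0.0563). The other 6, among them Cd3d, Cd3e, Cd3g and Cd8a, were too low to test. Of 10 neutrophil markers 4 could be tested, of which 2 fell, 1 rose and 1 did not pass the test. S100a8 (log2 fold change -1.40 ± 0.26 (SE), adjusted p = 0.000872) and S100a9 (log2 fold change -2.18 ± 0.33 (SE), adjusted p = 0.000196) fell without overlap of the groups, alongside the replication genes. Csf3r, the highest of the list, rose (log2 fold change 0.53 ± 0.09 (SE), adjusted p = 0.000663), and Cxcr2 did not pass the test (log2 fold change 0.60 ± 0.38 (SE), adjusted p = 0.222). The other 6 (Ly6g, Camp, Ltf, Ngp, Mpo and Elane) were too low to test, with at most 17 fragments in a sample. The sum of the list was 76.7 to 94.6 CPM in vehicle and 81.3 to 106 CPM in JHU083. Sums over 4 B cell markers (2.58 to 3.77 and 3.47 to 5.14 CPM), 5 dendritic cell markers (3.65 to 4.9 and 4.77 to 7.8 CPM) and 4 eosinophil markers (3.6 to 9.88 and 6.56 to 16.7 CPM) were low in vehicle and JHU083, with Cd79b and Siglecf called higher. No marker of these lists was at 0 in all samples. Of the 9 macrophage markers 4 rose, namely Adgre1, Csf1r, Mertk and Mrc1, and 0 fell. The part of these cell types in the replication gene results was not tested.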

How the data were processed

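Per the labels' protocols, poly(A) RNA was made into paired-end libraries with a kit that does not mark strand. The submitters' processing notes name bcl2fastq 2.17.1.14, FastQC 0.11.2, TopHat2 2.1.1 and GRCm38. The counter and annotation are not given in the sources used here. The authors deposited, per the file headers, raw counts that are not whole, and were given the unit expected counts. Dividing by a step per sample gave whole numbers (tolerance 0.02) for 99.15% to 99.38% of positive values, and these recovered counts were tested in place of the counts first planned. The other deposited column is FPKM, judged from the values. Of the loci, 1060 list more than 1 symbol.

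JHU083 was compared with vehicle over 12501 loci (filterByExpr, TMM) with edgeR 4.0.16 (quasi-likelihood F-test; R 4.3.3), using Benjamini-Hochberg adjustment at 0.05 over all loci and no covariate. The standard error is the absolute log2 fold change over the square root of F. CPM values use TMM-scaled library sizes. The test was tried on simulated counts. Positions and exons came from GENCODE M21 (GRCm38) by symbol, and promoters from RefSeq. A locus with several symbols was counted for its member, and for a gene with several loci the locus with most fragments was used. All members may be named; of each other list, up to 2 genes with the largest called decrease and 2 with the largest called increase are named, plus Top2a, Pclaf, Rrm2, Cdc7 and Dbf4. Members, lists and this rule were chosen with earlier results of these data known. Alternatives were DESeq2 1.42.0, limma 3.58.1 (voom with and without quality weights, and log2(FPKM + 1 or 0.1)), other scalings and filters, the deposited values rounded, loci with 1 symbol, subsets of samples, and a replicate block.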

Additional observations from a re-analysis of the deposited data

Results flagged for a closer look

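In 124 groups of 5 samples (the members and named genes, on log2 CPM with a prior count of 2), 4 held a sample far from the others, which chance gives in about 1 in 20 groups. All 4 were JHU083 replicate 3. Gmnn was 4.00 there and 3.53 to 3.64 in the other JHU083 samples. Rfc5 was 5.25 there against 4.88 to 4.97. Rbl2 was 4.83 there against 5.23 to 5.36. Dbf4 was 4.11 there against 4.56 to 4.68. Without JHU083 replicate 3, 36 of the 42 replication genes and 2929 of 12660 loci fell. Over all samples these were 35 genes and 2293 of 12501 loci, so calls over all loci increased as well.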

How the results depend on the processing

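Of the 36 called replication genes, 19 kept their call in every one of the 27 alternatives that included them. The count of genes that fell was 29 to 36 in all alternatives except within the samples listed at 0 for the ribosomal loci, where it was 19. The loci that fell varied as well. They numbered 586 of 12718 within the samples listed at 0. Elsewhere they ran from 1435 of 25545 with limma on unfiltered FPKM to 3141 of 12501 with library size only. The count of genes that rose was 0 with upper quartile scaling, library size only, no filter, limma on FPKM, loci with 1 symbol (Orc5's locus left out), the replicate block, the ribosomal status as a term and within either set of samples, and 0 to 1 on leaving out a sample. Called genes among the other DNA polymerases numbered 4 with quality weights or no filter, 0 within either set, and 1 to 3 on leaving out a sample. Limma on log2(FPKM + 1 or 0.1) called 1 of Clspn and E2f1 and 5 E2F family genes. Without a filter it called 1 and 3 of these, 8 fork cofactors and 2 origin firing factors, with 1435 loci lower and 1416 higher. Within the samples listed at 0, calls numbered 586 loci lower and 532 higher, 1 in ORC, 1 in RFC and PCNA, 3 polymerase subunits, 1 in RPA, 0 of Clspn and E2f1, 5 fork cofactors, 2 origin firing factors and 2 E2F family genes. Within the other samples 1274 loci rose. Signs of genes past no threshold reversed for Orc2 (-0.05 with library size only, -0.03 within the samples above 0, -0.01 to 0.05 on leaving out a sample), Orc3 (0.02 on all FPKM settings), Rfc1 (0.00 within the samples above 0), Pold4 (0.06 within the samples at 0) and Dbf4 (0.00 with quality weights, -0.12 to 0.01 on leaving out a sample). The subsets hold fewer samples; other causes were not tested. With the replicate number as a block, 32 replication genes fell (14.1% of loci). Deviations from the group means over the tested loci gave correlations of -0.57 to 0.09 between same-numbered samples. None was best with its own number, so the numbers were not taken as pairs. Within the replication machinery, Gins3 and Orc1 were the scarcest in CPM, with JHU083 means of 3.24 and 3.68 CPM. Named genes of the other lists were scarcer in JHU083, among them Dscc1 (mean 1.84 CPM) and Recql4 (mean 2.06 CPM). How far depth limits each gene was not tested.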

Other observations

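Other elements were counted in the same promoter windows of 36 replication genes. The looser E2F core, on either strand, was present in 63.9%, against 10.9% of 27025 genes. The CCAAT box, in either orientation, was present in 61.1%, against 41.1% of genes. The CHR element TTTGAA, known from promoters of mitotic genes and also searched on both strands, was present in 13.9%, against 20.2% of genes. Per length, Pcna was the highest of the 42 genes in both groups, and Orc4, whose level did not pass the test, was 20th of 42 in vehicle and 8th in JHU083.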
